A study of Homo sapiens with 4 samples.

Results

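The epidermal growth factor (EGF) receptor system was followed here through 8 genes: the ligand genes AREG, EREG, TGFA and HBEGF, the sheddase gene ADAM17, and the receptor genes EGFR, ERBB2 and ERBB3. They were taken by gene symbol from a table of 19389 protein-coding genes, and all 8 had 1 row each. The cells were SW620, an established human line grown from a lymph node metastasis of a colorectal cancer. In 2 libraries the cells were labelled control, and in the other 2 they had received hydrogen peroxide (H2O2), an oxidant, for 2 days. The sample labels state a dose of 150 µM, whereas the text for the series states 150 mM. The series title names the exposed cells senescent, and they are called H2O2-treated here. Whether both libraries of a group stem from independent cultures is not labelled, and the p-values then measure library-to-library spread alone, which may be technical.

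The 4 ligands are made as membrane-anchored precursors whose outer part is cut free by ADAM17, a metalloprotease of the cell surface, and can then reach receptors on the same or on other cells. AREG (amphiregulin) and TGFA (transforming growth factor alpha) bind EGFR, while EREG (epiregulin) and HBEGF (heparin-binding EGF-like growth factor) bind both EGFR and ERBB4. ERBB2 has no known soluble ligand and acts as a dimer partner, and ERBB3 binds neuregulins but has a weak kinase, so it signals through its partners. Dimers feed the RAS-ERK cascade, which in the intestine drives crypt cell proliferation.

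AREG and EREG are neighbours in the same orientation on chromosome 4, and their promoters are shown because these genes had the largest differences between the groups among the members tested. AREG lies at chromosome 4, 74445134 to 74455009, and EREG at 74365143 to 74388751, both on the plus strand of GRCh38 in GENCODE 29, with 56.4 kb between them. The RefSeq windows below (GRCh38.p14, plus strand) run from 250 bases before to 50 bases after the start site, chr4:74444886-74445185 for AREG and chr4:74364895-74365194 for EREG. Capitals mark matches to 4 motifs searched on both strands. Among them are TGACGTCA (the cyclic AMP response element bound by CREB-type factors) and TGANTCA (bound by AP-1 as TGAGTCA or TGACTCA). The others are TATAAA (the TATA box) and TGACNNNGC (the core of the antioxidant response element bound by NRF2).
AREG: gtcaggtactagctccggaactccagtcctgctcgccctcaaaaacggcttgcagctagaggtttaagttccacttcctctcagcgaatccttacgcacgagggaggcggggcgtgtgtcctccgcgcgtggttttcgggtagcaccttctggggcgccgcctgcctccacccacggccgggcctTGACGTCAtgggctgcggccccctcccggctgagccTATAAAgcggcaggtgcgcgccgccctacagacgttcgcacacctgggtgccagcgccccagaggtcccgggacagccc
EREG: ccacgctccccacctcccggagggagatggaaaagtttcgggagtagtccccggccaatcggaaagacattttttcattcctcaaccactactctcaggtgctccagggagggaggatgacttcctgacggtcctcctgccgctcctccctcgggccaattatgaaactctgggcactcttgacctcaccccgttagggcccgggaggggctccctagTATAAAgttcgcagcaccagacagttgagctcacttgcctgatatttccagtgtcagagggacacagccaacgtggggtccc
The AREG window held TGACGTCA, a palindrome counted as 1 match, with its first base 65 bases before the start site. That motif was present in 1.85% of the 35116 RefSeq windows of this length. Both windows held TATAAA, first base 29 bases before the start in AREG and 32 in EREG, as did 11.5% of all windows. Neither held TGANTCA, found with any letter at N in 7.71% of windows, or TGACNNNGC, found in 13.3%. A window was matched for 7 of the 8 genes, all but ERBB3. The single ERBB2 window had 1 match to TGANTCA, in the form TGATTCA, which is not an AP-1 site. Of the EGFR windows 1, at an inner start site, had 2 matches, TGAGTCA and TGACTCA. The windows of TGFA, HBEGF and ADAM17 held no match to any of the 4 motifs. These are matches of letters and say nothing on whether a factor was bound.

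Levels are given in FPKM as deposited, that is, sequenced fragments divided by transcript length and by the mapped total of the library, and can therefore be compared between genes per length. The table holds no counts, so depth is unknown, and summed FPKM per library ran from 574782 to 695837. Log2 changes are differences of log2(FPKM + 1), H2O2 minus control, ± SE from limma, a linear model fitted over the 11318 genes that reached 1 FPKM in 2 or more libraries. They understate the change of genes at low levels. Adjusted p-values are Benjamini-Hochberg values over those genes, with a threshold of 0.05, and "95% interval" is that of the log2 change. By limma 0 of 11318 genes passed, and the smallest adjusted p was 0.0511, while 1260 genes had an unadjusted p under 0.05. The epithelial markers KRT8 (3449 ± 237.2 FPKM in controls) and EPCAM (315.5 ± 28.96 FPKM; SD, n = 2 libraries) were abundant, as were KRT18 and VIL1, while CDH1 and CDX2 were lower and KRT20, LGALS4 and CEACAM5 stayed below 1 FPKM in each library. The 9 colon markers summed to 6849 and 5913 FPKM in controls 1 and 2 and to 5341 and 5232 FPKM in treated libraries 1 and 2. Both treated libraries lay below both controls for KRT8, EPCAM and VIL1 (88.4 and 104.7 against 67.7 and 72.9 FPKM), and above them for CDH1 (14.8 and 9.93 against 23.0 and 16.6 FPKM), KRT20 (0.0253 and 0.152 against 0.259 and 0.742 FPKM) and CEACAM5.

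AREG, EREG, TGFA and HBEGF were each higher in both H2O2-treated libraries than in both controls, while the receptor genes ERBB2 and ERBB3 overlapped between the groups. AREG stood at 13.1 ± 2.28 FPKM against 2.16 ± 0.333 FPKM in controls (SD, n = 2 libraries each), 6.05-fold higher by the means. In bulk RNA, more or fewer cells of a kind and more or less RNA per cell cannot be told apart. EGFR itself was close to 0 in controls and below 1 FPKM throughout. None of the 7 members tested passed limma's test adjusted over all genes, as 0% of all genes did. At an unadjusted p under 0.05, 4 of the 7 were higher, namely the 4 ligands, and 0 were lower, where 6.22% of all genes tested were higher and 4.91% lower. Both treated libraries lay above both controls for 5 of the 7, the ligands and ADAM17, against 19.3% of all genes tested, and below both for 0, against 24% of all genes. EREG is in both counts. Below 1 FPKM in both controls, it entered the test on the strength of its treated values alone, and a fall could hardly have been seen. The members, and the gene lists below, were chosen with earlier results of these data known. Counts of them are a description and no test. EGFR did not reach the filter.

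**Figure D1:**
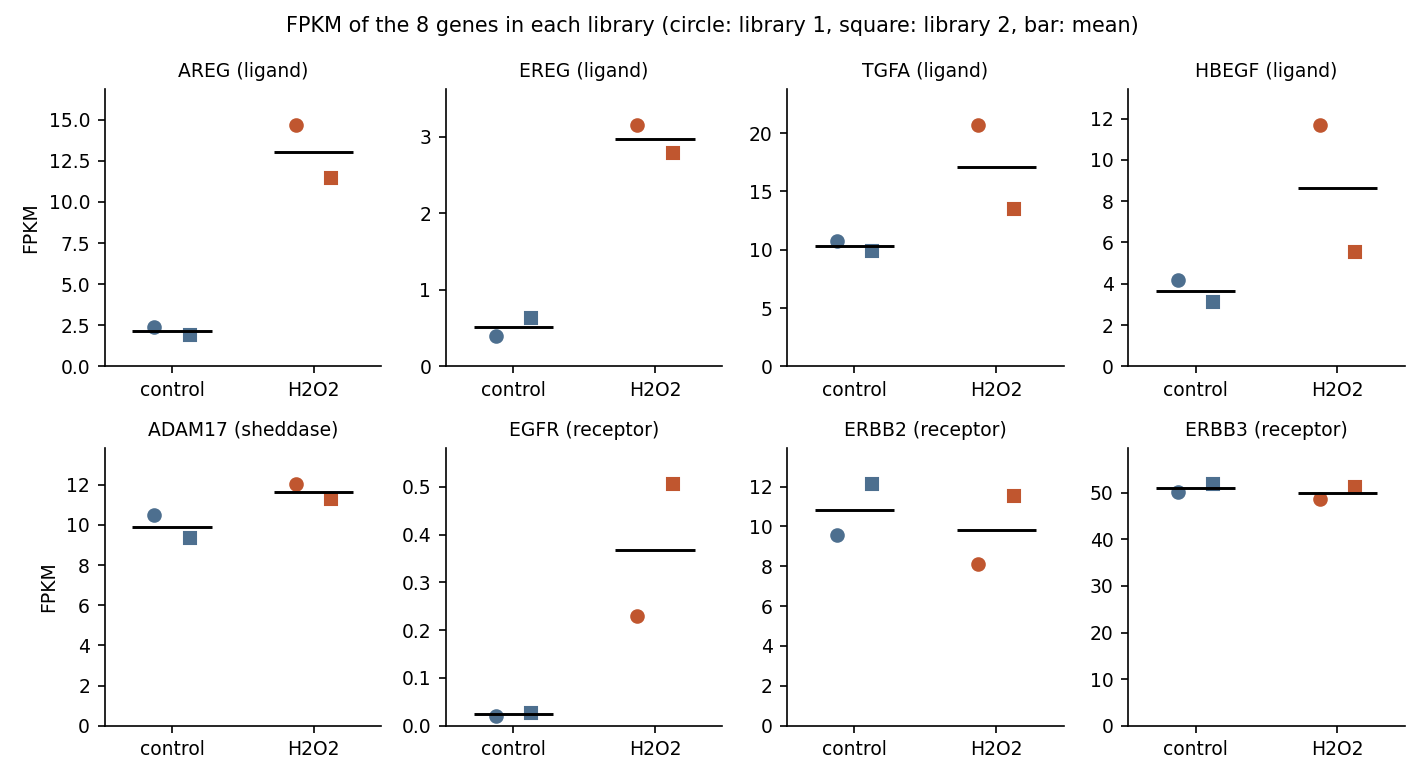
FPKM of the 8 genes (vertical axes, linear and starting at 0, a scale of its own for each gene) in the control and H2O2-treated libraries. Circles are library 1, squares library 2 and bars the mean of a group; the 4 ligands sit higher in both treated libraries, ERBB2 and ERBB3 overlap, and EGFR stays below 1 FPKM.

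Amphiregulin is an EGFR ligand with low affinity that epithelia make in response to injury. AREG was at 2.39 and 1.92 FPKM in control libraries 1 and 2, and at 14.7 and 11.4 FPKM in H2O2-treated libraries 1 and 2. The groups were far apart compared with the spread within them. Among all 19389 genes AREG moved from percentile 48.4 and 46.7 of the level in the controls to percentile 71.6 and 67.5 in the treated libraries. Its log2 change was 2.15 ± 0.20 (SE; 95% interval 1.66 to 2.63), with an adjusted p of 0.0511 by limma. By size of the log2 change it ranked 11 among the 11318 genes, and by p it ranked 5. With any 1 library left out its log2 change was 1.98 to 2.31. A group then holds a lone library, assumed to vary like the other group, so no test is given for those fits. The limma test was passed after each library was rescaled to the same total (TPM, log2 change 2.45, adjusted p = 0.0157). Rescaling to TPM moved the median log2 change of all genes by 0.17, and relative to that median the change of AREG was 2.31, compared with 2.18 as deposited. It was not passed with no filter on low values (adjusted p = 0.285) or by quantile normalization (0.088), nor, at 0.0557 to 0.0651, with the other pseudocounts, a mean FPKM of 5 or more, upper-quartile scaling or no variance trend. With a pseudocount of 5 the log2 change was 1.33.

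Epiregulin is a broad ligand of the family, often made by the same tumours as amphiregulin. EREG was at 0.403 and 0.634 FPKM in controls 1 and 2 and at 3.15 and 2.78 FPKM in treated libraries 1 and 2, so all treated values exceeded the controls. The means were 0.519 ± 0.164 and 2.97 ± 0.26 FPKM (SD, n = 2 libraries each), a ratio of 5.72. The log2 change was 1.39 ± 0.21 (SE; 95% interval 0.89 to 1.89; limma adjusted p = 0.159), the rank 66 by size and 30 by p. Because EREG was low, the value hung on the pseudocount, from 0.53 with 5 to 2.33 with 0.1. AREG exceeded EREG by 5.95 and 3.03 times in controls 1 and 2 and by 4.65 and 4.11 times in treated libraries 1 and 2. The ratio in the treated libraries lay inside the range of the controls.

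TGFA, the ligand gene with the highest level in every library, lies at chromosome 2, 70447280 to 70554193, minus strand. It was at 10.7 and 9.93 FPKM in controls 1 and 2 and at 20.7 and 13.5 FPKM in treated libraries 1 and 2. The groups did not overlap, and treated library 1 was well above treated library 2. The log2 change was 0.65 ± 0.23 (SE; 95% interval 0.093 to 1.20; limma adjusted p = 0.409), and 0.36 without treated 1. HBEGF, whose product binds heparan sulphate and is released on cell stress, lies at chromosome 5, 140332843 to 140346631, minus strand. It was at 4.20 and 3.13 FPKM in controls 1 and 2 and at 11.7 and 5.55 FPKM in treated libraries 1 and 2. As for TGFA, the groups did not overlap and treated library 1 was the higher. The log2 change was 0.98 ± 0.33 (SE; 95% interval 0.18 to 1.77; limma adjusted p = 0.392), 0.50 without treated 1 and 0.62 with a pseudocount of 5. By size of change TGFA ranked 516 and HBEGF 214 among the genes tested.

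The 4 ligand genes together summed to 17.7 and 15.6 FPKM in controls 1 and 2 and to 50.2 and 33.3 FPKM in treated libraries 1 and 2. The group means were 16.7 ± 1.48 and 41.7 ± 11.9 FPKM (SD, n = 2 libraries each). The make-up of this sum differed as well as its size. AREG supplied 13.5% and 12.3% of it in controls 1 and 2 and 29.2% and 34.4% in treated libraries 1 and 2. TGFA supplied 60.5% and 63.6% in controls 1 and 2, against 41.2% and 40.6% after treatment, and so remained the largest share in each library. EREG supplied 2.27% and 4.06%, then 6.28% and 8.37%. HBEGF, at 23.7% and 20.04% in controls 1 and 2 against 23.3% and 16.7% after treatment, overlapped between the groups. TGFA exceeded AREG by 4.48 and 5.17 times in controls 1 and 2, but by only 1.41 and 1.18 times after treatment.

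**Figure D2:**
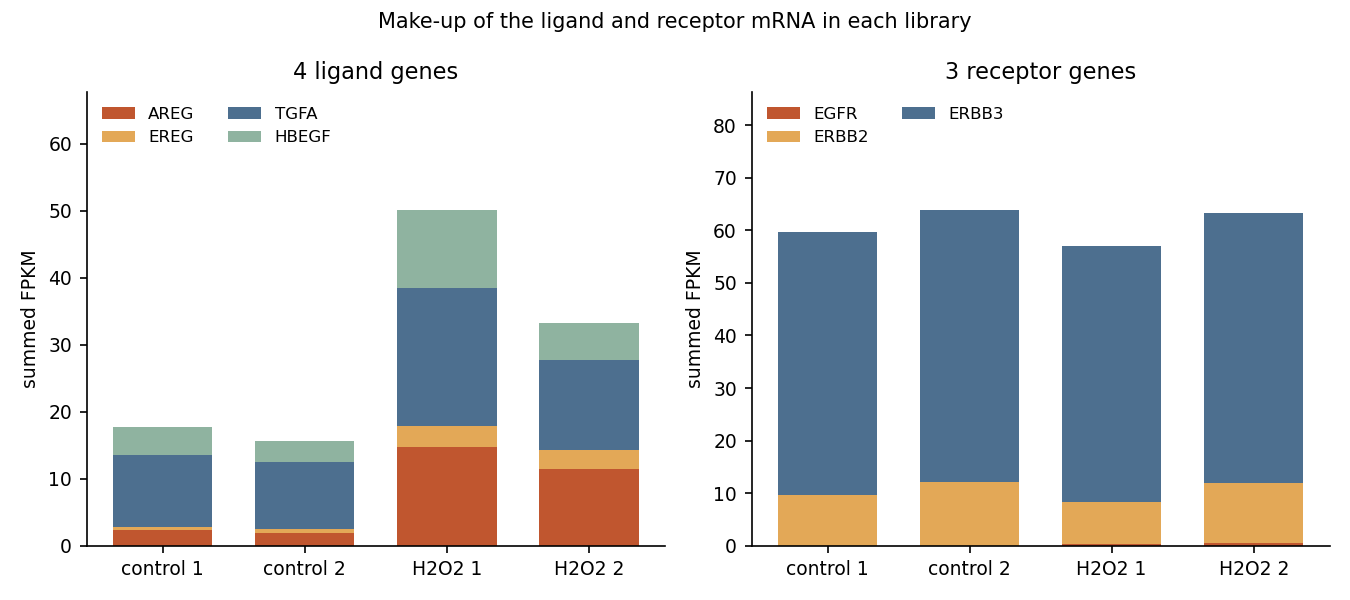
Summed FPKM (vertical axes) of the 4 ligand genes, left, and the 3 receptor genes, right, in each library (horizontal axes), with 1 colour per gene. The ligand sum is 15.6 to 17.7 FPKM in controls and 33.3 to 50.2 FPKM in treated libraries, with a larger AREG part, while the receptor sum of 57.0 to 63.9 FPKM is mostly ERBB3.

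ADAM17, also known as tumour necrosis factor alpha converting enzyme, lies at chromosome 2, 9488486 to 9556732, minus strand. Its level was 10.5 and 9.33 FPKM in controls 1 and 2 and 12.0 and 11.3 FPKM in treated libraries 1 and 2. The groups did not overlap, but the gap was small compared with those of the ligands. The log2 change was 0.22 ± 0.17 (SE; 95% interval -0.19 to 0.62; limma adjusted p = 0.69). It was 0.14 without control 2 and 0.40 after rescaling to TPM, or 0.26 relative to the median of all genes on that scale. The interval leaves room for no difference and for a difference of 0.62.

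ERBB3, at chromosome 12, 56076799 to 56103505, plus strand, was the most abundant of the 8 genes in every library, at 50.1 and 51.8 FPKM in controls 1 and 2 and 48.6 and 51.2 FPKM in treated libraries 1 and 2. The groups overlapped, and the log2 change was -0.030 ± 0.16 (SE; 95% interval -0.41 to 0.35; limma adjusted p = 0.969). Its sign turned after rescaling to TPM (0.15), upper-quartile scaling (0.050) and quantile normalization (0.071), and without treated 1 (0.0069). ERBB2, at chromosome 17, 39687914 to 39730426, plus strand, was at 9.58 and 12.1 FPKM in controls 1 and 2 and 8.13 and 11.5 FPKM in treated libraries 1 and 2. Library 2 was the higher in both groups, and the groups overlapped. The log2 change was -0.14 ± 0.22 (SE; 95% interval -0.68 to 0.40; limma adjusted p = 0.861), and it was above 0 after rescaling to TPM (0.030), without control 2 (0.015) and without treated 1 (0.087). Without control 1 it was -0.29 and without treated 2 it was -0.37.

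EGFR, the receptor that AREG and TGFA bind, lies at chromosome 7, 55019021 to 55211628, plus strand. It was listed at 0.0199 and 0.0272 FPKM in controls 1 and 2 and at 0.23 and 0.505 FPKM in treated libraries 1 and 2. Both treated values lay above both controls, and all 4 were too low for the filter. In a fit of 16477 genes without that filter the log2 change was 0.41 ± 0.11 (SE; limma adjusted p = 0.401). With the depth unknown, the number of fragments behind these values cannot be given. EGFR made up 0.0333% and 0.0425% of the summed FPKM of the 3 receptor genes in controls 1 and 2, and 0.403% and 0.799% in treated libraries 1 and 2. ERBB3 made up 81.0% to 85.3% of that sum over the 4 libraries. The sum itself was 61.8 ± 2.99 FPKM in controls and 60.1 ± 4.41 FPKM in treated libraries (SD, n = 2 libraries each), a difference smaller than the spread within a group.

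**Figure D3:**
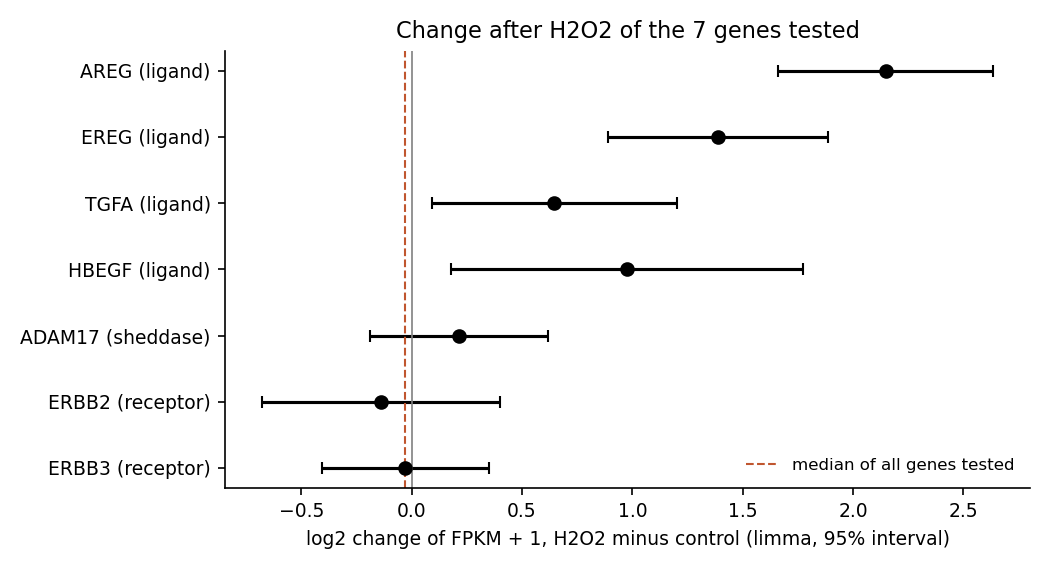
Log2 change of FPKM + 1, H2O2 minus control (horizontal axis), of the 7 genes tested, with points for limma's estimate and bars for the 95% interval. The intervals of the 4 ligands lie above 0, those of ADAM17, ERBB2 and ERBB3 cover it, and the dashed line is the median of all genes tested, -0.029.

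In controls the order of the levels was ERBB3 (51.0 FPKM), ERBB2 (10.8 FPKM), TGFA (10.3 FPKM), ADAM17 (9.90 FPKM), HBEGF (3.67 FPKM), AREG (2.16 FPKM), EREG (0.519 FPKM) and EGFR (0.0235 FPKM). The libraries of ERBB2, TGFA and ADAM17 overlapped there, so these 3 have no firm order. In treated cells the order was ERBB3 (49.9 FPKM), TGFA (17.1 FPKM), AREG (13.1 FPKM), ADAM17 (11.6 FPKM), ERBB2 (9.82 FPKM), HBEGF (8.61 FPKM), EREG (2.97 FPKM) and EGFR (0.368 FPKM). From TGFA down to HBEGF each neighbouring pair overlapped in its libraries.

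Other members of the family were low. Of the 7 other ligand genes listed, 0 reached the filter, and EPGN, NRG1 and NRG3 were listed at 0 in all 4 libraries. BTC, the betacellulin gene, was at 0.23 and 0.129 FPKM in controls 1 and 2 and 0.349 and 0.327 FPKM in treated libraries 1 and 2. EGF was listed at 0 in 3 libraries and at 0.0219 FPKM in treated library 2. NRG2 and NRG4, neuregulin genes, were at or below 0.391 FPKM in each library. ERBB4, the other receptor that EREG and HBEGF bind, was listed at 0 in 3 libraries and at 0.00293 FPKM in treated library 2.

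Within 500 kb on either side of the EREG and AREG pair the table held 12 genes, themselves included, of which 7 stayed below 1 FPKM in every library. Besides EREG and AREG the genes tested were CXCL1 and CXCL3, which encode neutrophil-attracting chemokines, and MTHFD2L, a mitochondrial folate enzyme gene. CXCL1 had a log2 change of 0.19 ± 0.28 (SE; limma adjusted p = 0.85) and MTHFD2L of 0.11 ± 0.20 (adjusted p = 0.875). CXCL3 was at 3.46 and 3.37 FPKM in controls 1 and 2 and at 6.26 and 2.68 FPKM in treated libraries 1 and 2, so its groups overlapped. EPGN and BTC, the ligand genes to either side of the pair, were among those below 1 FPKM.

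**Figure D4:**
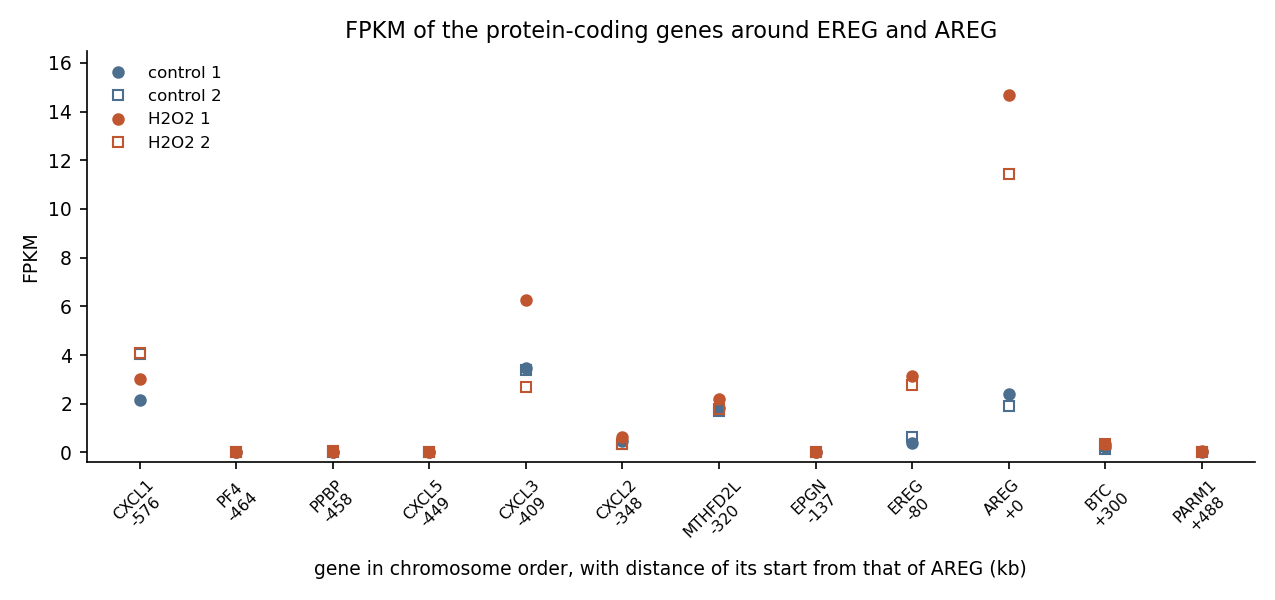
FPKM (vertical axis) of the 12 genes around EREG and AREG in chromosome order, with the distance of each start from that of AREG in kb under its name (horizontal axis). Filled circles are library 1 and open squares library 2 of each group; EREG and AREG have treated values well above the controls, and CXCL1, CXCL3 and MTHFD2L overlap between groups.

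Among the other ADAM proteases able to shed membrane proteins, 4 of the 6 listed were tested, and 0 passed limma's test over all genes or had an unadjusted p under 0.05. ADAM10, the main sheddase of EGF and betacellulin, was at 21.1 and 29.6 FPKM in controls 1 and 2 and 24.4 and 24.8 FPKM in treated libraries 1 and 2. ADAM17 had a lower level than ADAM10 in every library, by a ratio of 0.316 to 0.498 in controls and 0.456 to 0.492 in treated libraries. ADAM15 was at 35.2 ± 8.81 and 46.6 ± 7.19 FPKM, ADAM19 at 11.2 ± 0.122 and 12.8 ± 3.56 FPKM, and ADAM9 at 20.4 ± 2.66 and 21.6 ± 1.82 FPKM in controls and treated libraries (SD, n = 2).

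Of 13 genes for partners of the sheddases and for carriers of the ligand precursors, 13 were tested and 0 passed over all genes, while an unadjusted limma p under 0.05 was reached by 2 higher genes and 0 lower ones, against 6.22% and 4.91% of all genes tested. Their median log2 change was -0.040, beside -0.029 for all genes tested, and its sign turned under rescaling to TPM, upper-quartile scaling and quantile normalization, and without control 1 or treated 1. The 2 were TIMP3 and RHBDF1. TIMP3 encodes the tissue inhibitor that blocks ADAM17, and was at 0.387 and 0.35 FPKM in controls 1 and 2 and 1.85 and 2.51 FPKM in treated libraries 1 and 2. Its log2 change was 1.21 ± 0.22 (SE; limma adjusted p = 0.222), ranging from 0.42 with a pseudocount of 5 to 2.27 with 0.1, and only its treated values reached the filter. RHBDF1 encodes iRhom1, an inactive rhomboid protein that carries ADAM17 to the cell surface. It was at 15.3 and 12.4 FPKM in controls 1 and 2 and 25.3 and 27.1 FPKM in treated libraries 1 and 2, with a log2 change of 0.88 ± 0.18 (SE; limma adjusted p = 0.247). Neither of these 2 genes overlapped between groups. RHBDF2, which encodes the related iRhom2, was at 34.5 and 29.3 FPKM in controls 1 and 2 and 30.7 and 31.1 FPKM in treated libraries 1 and 2, so its groups overlapped. FRMD8, whose product stabilises the iRhoms, was at 29.9 ± 2.91 and 34.9 ± 3.70 FPKM, and FURIN, which removes the ADAM17 prodomain, at 11.4 ± 1.46 and 14.95 ± 2.44 FPKM (SD, n = 2). TSPAN15, a tetraspanin that guides ADAM10, was at 44.5 ± 0.101 and 35.2 ± 6.67 FPKM.

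Of 16 genes for adaptors and the RAS-ERK cascade, 15 were tested, 0 passed over all genes, and an unadjusted limma p under 0.05 was reached by 1 higher and 1 lower gene, close to the 6.22% and 4.91% of all genes tested. Their median log2 change was -0.0095, beside -0.029 for all genes tested. After rescaling to TPM it was 0.18, beside 0.14 for all genes. It was 0.11 without treated 2 and -0.092 without treated 1. SHC1, an adaptor that docks on phosphorylated receptors, was at 54.4 and 56.1 FPKM in controls 1 and 2 and 81.0 and 100.6 FPKM in treated libraries 1 and 2. Its groups did not overlap, and the log2 change was 0.70 ± 0.18 (SE; limma adjusted p = 0.306). HRAS was at 43.2 and 38.4 FPKM in controls 1 and 2 and 33.2 and 23.8 FPKM in treated libraries 1 and 2, a log2 change of -0.52 ± 0.21 (SE; limma adjusted p = 0.438), and -0.29 without treated 2. BRAF, a kinase above MEK, was at 5.94 ± 0.313 and 7.46 ± 0.563 FPKM, and SOS2, an exchange factor for RAS, at 8.84 ± 0.408 and 10.1 ± 0.302 FPKM (SD, n = 2).

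Of 14 genes for proteins that restrain the receptors or act in their sorting and breakdown, 13 were tested. The list mixes directions, with CBL, which adds ubiquitin to EGFR, beside USP8, which takes ubiquitin off. By limma 0 of the 13 genes passed over all genes or had an unadjusted p under 0.05. Their log2 changes were positive in 11 and negative in 2, with a median of 0.23, where 45.7% of all genes tested were positive. On the TPM scale that median was 0.41, beside 0.14 for all genes, and without treated 1 it was 0.15. LRIG1, a membrane protein that promotes receptor breakdown, was at 5.38 and 8.62 FPKM in controls 1 and 2 and 4.16 and 4.73 FPKM in treated libraries 1 and 2. ERRFI1, an inhibitor that ERK signalling switches on and that binds the receptor kinase, was at 44.4 and 30.3 FPKM in controls 1 and 2 and 96.3 and 36.4 FPKM in treated libraries 1 and 2. The groups of ERRFI1 overlapped, since treated library 2 lay below control 1, and without treated 1 its log2 change turned from 0.68 to -0.010. CBL, the ubiquitin ligase of EGFR, was at 10.3 ± 0.366 and 13.6 ± 1.59 FPKM, and USP8, which removes ubiquitin from the receptors, at 14.3 ± 0.14 and 17.3 ± 1.23 FPKM (SD, n = 2).

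The ERK output genes are a list of 10 whose mRNA is known to follow activity of the cascade, and all 10 were tested. By limma 0 passed over all genes, and an unadjusted p under 0.05 was reached by 4 higher genes and 0 lower ones, where 6.22% of all genes tested were higher and 4.91% lower. The median log2 change was 0.38, beside -0.029 for all genes, and it was 0.17 without control 2, 0.074 without treated 1 and 0.58 without treated 2. EPHA4, an ephrin receptor gene, was at 2.47 and 2.21 FPKM in controls 1 and 2 and 5.23 and 4.42 FPKM in treated libraries 1 and 2, a log2 change of 0.80 ± 0.19 (SE; limma adjusted p = 0.299). DUSP6, an ERK phosphatase gene, was at 68.1 and 59.8 FPKM in controls 1 and 2 and 92.2 and 98.1 FPKM in treated libraries 1 and 2, a log2 change of 0.57 ± 0.17 (SE; limma adjusted p = 0.341). Neither EPHA4 nor DUSP6 overlapped between the groups. DUSP4, a nuclear phosphatase gene, was at 26.8 ± 5.35 and 39.0 ± 3.76 FPKM, and the Sprouty gene SPRY4, a feedback inhibitor, at 14.0 ± 2.19 and 20.4 ± 2.65 FPKM (SD, n = 2). The other 6 had no unadjusted p under 0.05, and SPRY2, PHLDA1, ETV4 and ETV5 had negative values, with log2 changes of -0.37, -0.12, -0.053 and -0.025. SPRY2 was at 48.9 and 54.9 FPKM in controls 1 and 2 and 33.8 and 46.8 FPKM in treated libraries 1 and 2. Both treated libraries lay above both controls for 5 of the 10 genes, against 19.3% of all genes tested. They lay below both for 1, SPRY2, against 24%.

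**Figure D5:**
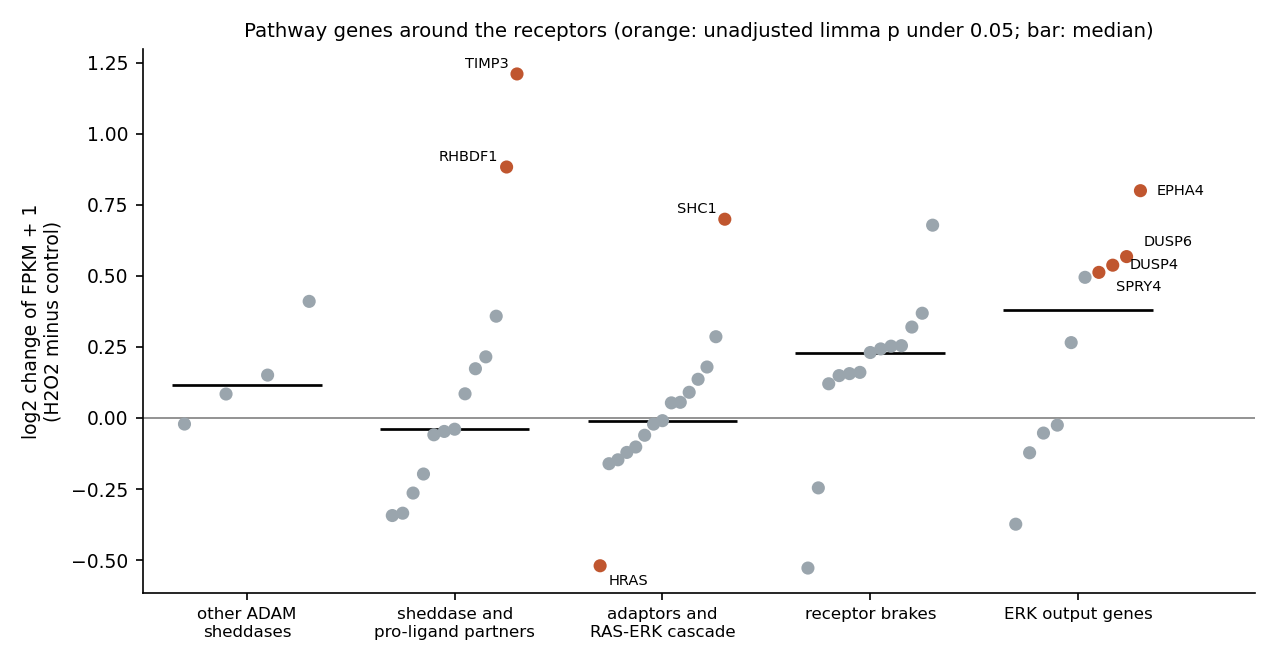
Log2 change of FPKM + 1, H2O2 minus control (vertical axis), of each gene tested in 5 lists around the receptors (horizontal axis); orange points have an unadjusted limma p under 0.05, grey points do not, and bars are list medians. TIMP3, RHBDF1, SHC1, HRAS, EPHA4, DUSP6, DUSP4 and SPRY4 are the 8 orange points, and none of them passed over all genes.

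Markers of other cell types were read in the same libraries. The 6 leukocyte markers summed to 5.16 and 6.68 FPKM in controls and to 12.5 and 36.7 FPKM in treated libraries 1 and 2, mostly CD68 and LYZ, with 4 of the 6 below 1 FPKM in each library. CD68 was at 1.92 and 1.83 FPKM in controls 1 and 2 and at 7.65 and 17.7 FPKM in treated libraries 1 and 2. Its log2 change was 2.15 ± 0.36 (SE, limma adjusted p = 0.202), rank 10 by size among the genes tested. The groups of LYZ overlapped, at 2.95 and 4.43 FPKM in controls and 4.41 and 18.4 FPKM in treated libraries. PTPRC, the pan-leukocyte gene, was at or below 0.00822 FPKM. The 6 endothelial markers summed to 8.94 and 6.46 FPKM in controls and 13.7 and 15.7 FPKM in treated libraries, mostly EGFL7 and, in treated libraries, TIE1, with 4 of the 6 below 1 FPKM, among them PECAM1 at or below 0.136 FPKM. The 7 fibroblast markers summed to 5.52 and 10.3 FPKM in controls and 6.41 and 13.0 FPKM in treated libraries, carried mainly by LUM (2.00 to 6.94 FPKM) and COL1A1 (1.23 to 3.16 FPKM), whose groups overlapped. THY1 was at 0.361 and 0.159 FPKM in controls 1 and 2 and 1.37 and 1.93 FPKM in treated libraries 1 and 2, and PDGFRB was also higher in both treated libraries (1.71 and 1.00 FPKM) than in both controls (0.798 and 0.903 FPKM). COL1A2 and COL3A1 were at or below 0.00864 FPKM and DCN at or below 0.106 FPKM. Of the 4 erythroid markers 3 were listed at 0 in all libraries, and the list summed to 3.50 and 6.71 FPKM in controls and 3.83 and 9.64 FPKM in treated libraries. The part of these markers in the ligand values was not tested.

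The genes most like AREG were those with the smallest Euclidean distance between row-centred log2(FPKM + 1) values over the 4 libraries, among tested genes outside the 8. They were OSCAR (distance 0.191), ZFP90 (distance 0.208), C11orf96 (distance 0.225), LAMA3 (distance 0.267) and IL11 (distance 0.323), on chromosomes 19, 16, 11, 18 and 19. ZFP90, a zinc finger gene, was at 2.17 and 1.69 FPKM in controls 1 and 2 and 12.0 and 11.6 FPKM in treated libraries 1 and 2, the nearest of the 5 to AREG in level. OSCAR, an immunoglobulin-like receptor gene, was at 0.428 and 0.158 FPKM in controls 1 and 2 and at 4.53 and 3.62 FPKM after treatment. LAMA3, the laminin alpha 3 chain gene, was at 2.11 and 1.66 FPKM and then 12.0 and 8.07 FPKM. Nearest to EREG were TIE1 (distance 0.181), DLG4 (distance 0.203) and PLTP (distance 0.246). Nearest to EGFR were FBXL2 (distance 0.0226), SOCS1 (distance 0.0405) and WDR47 (distance 0.0454). The added 1 FPKM compresses changes near 0, so near genes can differ much in fold. By the means EGFR was 15.6-fold higher after treatment, but FBXL2 1.44-fold, SOCS1 1.79-fold and WDR47 1.47-fold. EREG was 5.72-fold higher, beside 20.1-fold for TIE1, 2.57-fold for DLG4 and 3.01-fold for PLTP.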

How the data were processed

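RNA of 4 SW620 libraries, 2 control and 2 H2O2-treated, was sequenced with a strand-keeping kit, as the labels' protocols state. STAR 2.5, Cufflinks 2.2.1 and hg38 are named in the submitters' processing notes, and the strand setting, annotation and filters are not given there. The authors deposited 1 FPKM value per gene and library and no counts, so depth is unknown. FPKM are estimates, and in GENCODE 29 ADAM17, EGFR and ERBB2 overlap genes on the opposite strand, and TGFA (the intronic TGFA-IT1), ERBB2 (the microRNA gene MIR4728) and ERBB3 (a coding gene) overlap genes on their own strand, so reads there may have been shared. Coordinates are those of GENCODE 29; the deposited loci were the same for 4 members, after adding 1 to the start, and had other ends for ADAM17, ERBB2, ERBB3 and TGFA.

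Group was the only term of the limma 3.58.1 model (R 4.3.3), with variances shrunk towards a trend, 2 residual and 6.28 total degrees of freedom, on log2(FPKM + 1) and a two-sided test. An exact permutation test of 2 against 2 libraries cannot give a p below 0.333 and was not used. Figures used Python 3.11.15 and matplotlib 3.10.9. On data simulated from its own fitted variances, with changes added, the model recovered the direction of the genes it called. A right sign is nearly assured in that setting, so this does not show how many real changes were missed. The members, gene lists and tests were chosen with earlier results of these data known. Named were the members, up to 4 genes per list with the smallest p, the listed partners of ADAM17, and the genes most like AREG, EREG and EGFR; the family, chromosome 4 and remaining ERK output genes, and the markers, were named after their values were seen. There were 13 alternatives: pseudocounts, filters, scalings, no variance trend, each library left out, and a replicate block.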

Additional observations from a re-analysis of the deposited data

How the results depend on the processing

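Of the 8 genes, the 4 ligands and ADAM17 kept a positive log2 change under every alternative that gave a value; EREG gave none in genes of mean FPKM 5 or more, and EGFR gave one only without a filter. Over all genes the number called was 0 higher and 0 lower, but 5 higher among genes of mean FPKM 5 or more, 32 higher after rescaling to TPM, and 8 to 127 higher and 0 to 13 lower with 1 library left out, where the lone library is assumed to vary like the other group. Of the members 1, AREG, was called after rescaling to TPM, and again 1, AREG, with any 1 library left out. The library numbers are shared between the groups, but no label says that they pair the samples, and 2 pairs are too few to decide it from the data. Over genes, deviations from the group mean correlated at r = 0.45 between same-numbered libraries. The crossed pairing gave r = -0.45, which is fixed as the mirror value with 2 libraries per group. The block leaves fewer residual degrees of freedom per gene than the 2 of the main model. With the replicate block, limma called 397 genes higher and 190 lower, and 3 members: AREG (adjusted p = 0.000116), EREG (0.00308) and HBEGF (0.0182). TGFA did not pass (0.059).

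Signs turned, each far from the threshold, in 7 genes. By TPM, upper quartile and quantile normalization ERBB3 was at 0.15, 0.050 and 0.071, ADAM10 at 0.16, 0.057 and 0.027, and RHBDF2 at 0.14, 0.039 and 0.024, and ERBB2 was at 0.030 by TPM. With 1 library left out the ranges were -0.37 to 0.087 for ERBB2, -0.066 to 0.0069 for ERBB3, -0.26 to 0.21 for ADAM10, -0.15 to 0.074 for RHBDF2, -0.11 to 0.42 for ADAM19, -0.043 to 0.21 for ADAM9 and -0.010 to 1.37 for ERRFI1. The median log2 change of all genes was -0.029 as deposited, 0.14 by TPM, 0.044 by upper quartile and -0.024 by quantile normalization. Relative to it ERBB2 was at -0.11, -0.11, -0.11 and -0.13 in that order, and ERBB3 at -0.00066, 0.011, 0.0059 and 0.095. The cause of the sign changes was not tested. Read depth, which sets the precision of EGFR and EREG, is unknown.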
